A study of Schizosaccharomyces pombe with 88 samples.

Results

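Fission yeast (Schizosaccharomyces pombe) cells with a mutated chk1 gene were compared with wild-type (WT) cells growing through the cell cycle without any drug. The members are the 10 chk1 arrays and the 10 WT arrays without hydroxyurea (HU) at 0, 40, 80, 160 and 200 min, 20 of the 88 arrays in the series, paired by time. The chk1 arrays of 120 min were left out because they match WT arrays: there the chk1 minus WT difference had an SD over genes of 0.184 in repeat 1 and 0.00594 in repeat 2, where the lowest SD at the 5 times used was 0.289. The match does not settle which label holds there. At 120 min the chk1 transcript read -1.24 and -0.99 on the arrays labelled chk1 and -0.61 and -0.87 on those labelled WT, all below the WT range at the 5 times used. meu27, the gene next to chk1, read -0.15 and -0.78 on the arrays labelled chk1 and -0.07 and -0.66 on those labelled WT, within its WT range and below its chk1 range. isp5, the gene with the largest fall below, read 2.04 and 2.19 on the arrays labelled chk1 and 2.17 and 2.31 on those labelled WT. These values lay within the span of its WT levels at 80 and 160 min and above its chk1 levels at both times. Cells of both strains were grown at a common temperature, made synchronous by elutriation, which collects small cells in early G2, and sampled for total RNA after release. The series also holds rad3 and cds1 mutants and a parallel arm with 8 mM HU, an inhibitor of ribonucleotide reductase. The labels call the strains WT, rad3, cds1 and chk1 and give no allele, marker or mating type. Each value is a log2 ratio of the sample (Cy5) over 1 common reference of asynchronous, untreated WT cells (Cy3). Each strain stands for 1 culture and each condition for 2 array repeats, so strain cannot be told apart from culture or from array batch, and the p-values measure only the spread over times and strains.

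Chk1 is the kinase that carries out the DNA damage checkpoint response. The sensor kinase Rad3 (the relative of ATR) activates it through the mediator Crb2 and the ring-shaped Rad9-Rad1-Hus1 clamp, and active Chk1 holds Cdc2 inactive by acting on Cdc25 and Wee1, which delays mitosis. Cds1 is the parallel effector kinase for stalled replication forks. Without damage or drug, fission yeast cells lacking Chk1 grow and divide.

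The repeats of the 2 strains agreed unequally. Over genes, the 2 chk1 repeats of a condition correlated with a median of 0.992 over the 5 times, and the 2 WT repeats with a median of 0.729. The WT difference of repeat 1 minus repeat 2 was itself alike from time to time, with correlations of 0.607 to 0.752. Array medians lay between -0.06 and 0.03. For named genes the text below therefore states where a call did not hold against 1 WT repeat alone, for some with the difference. These fits on 1 WT repeat were added after the data were seen.

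The chk1 transcript was low in the chk1 strain on every array. Averaged over both probes, it stood at -1.35 and -1.41 (0 min), -1.03 and -1.18 (40 min), -1.61 and -1.45 (80 min), -1.19 and -1.28 (160 min), and -1.17 and -0.87 (200 min). In WT it ranged from -0.51 to 0.28 over the 10 arrays, so the strains did not overlap. The mean difference over the 5 times was -1.08 ± 0.13 on the log2 scale (SE from limma; adjusted p = 0.000265). The probes did not report it equally. One averaged -1.84 ± 0.43 (SD, n = 10 arrays) in chk1 against -0.24 ± 0.29 in WT, and the other -0.67 ± 0.07 against -0.11 ± 0.16. Since the allele is not given, where the probes lie relative to the mutation is unknown here. The rad3 transcript (difference 0.00 ± 0.10, adjusted p = 0.996) and the cds1 transcript (-0.04 ± 0.15, adjusted p = 0.905) did not pass the test.

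The gene next to chk1 on chromosome III, meu27, rose by 1.17 ± 0.10 (adjusted p = 1.92e-06), the second largest rise of the 10 named below. Its name stands for meiotic expression upregulated, from a screen of genes induced in meiosis. On the chk1 arrays it read 0.43 and 0.24 (0 min), 0.92 and 0.88 (40 min), 0.73 and 0.82 (80 min), 0.71 and 0.79 (160 min), and 0.37 and 0.46 (200 min). On the WT arrays it read -0.01 and -1.23, -0.40 and -0.85, -0.14 and -0.47, -0.15 and -0.58, and -0.78 and -0.73 at the same times. All chk1 values lay above all WT values, and both probes of the gene were higher (1.42 and 0.98). The level of meu27 in rad3 (mean -0.45) and cds1 (mean -0.17) was also below that in chk1, by 1.09 ± 0.10 (adjusted p = 2.92e-06) and 0.80 ± 0.10 (adjusted p = 0.000181). The next gene on that side, ppc1, rose by 0.35 ± 0.09 (adjusted p = 0.0213), and its call was lost without 80, 160 or 200 min and under 2 of the 3 scalings of arrays. The other 8 of the 10 nearest measured genes (pdx1, pgp1, gyp2, gid1 and ubc11 on one side, cbp3, tip41 and cwf20 on the other) ranged from -0.15 to 0.22 and did not pass. Medians over runs of 50 neighbouring genes lay between -0.09 and 0.12 on the 3 chromosomes.

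**Figure D1:**
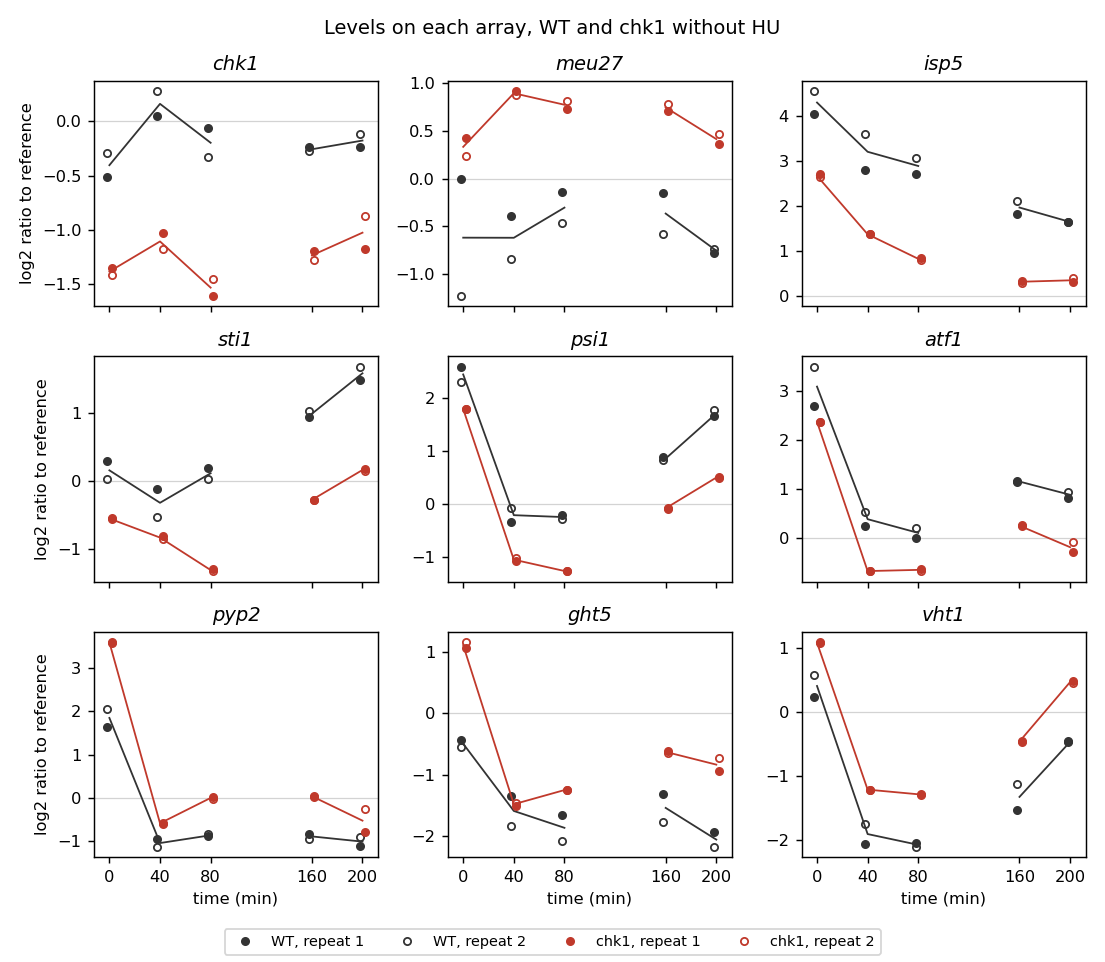
Levels of 9 genes on each array (log2 ratio to the reference, vertical axis) against time in minutes (horizontal axis) in WT (black) and chk1 (red), with filled and open points for array repeats 1 and 2 and lines through their means, interrupted at the omitted 120 min. chk1 lies below and meu27 above WT on all arrays, while isp5, sti1, psi1 and atf1 run below WT and pyp2, ght5 and vht1 above it along a similar course over time.

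Across all genes, 597 of 4928 (12.1%) passed an adjusted p of 0.05 for the mean chk1 minus WT difference: 292 (5.93%) were higher in chk1 and 305 (6.19%) lower. The list counts below are to be read beside these 2 shares. Most differences were small, with a median absolute value of 0.35 among the called genes against 0.12 over all genes, and 11 called genes reached 1 or more, 5 higher and 6 lower. Of the called genes, 90.6% had one sign at all 5 times, as had 27.0% of all genes. The call tests the mean of these same 5 differences, so it favours genes of one sign. Where 2 probes measured a called gene, they had one sign for 583 of 593 genes, and over all 4895 genes with 2 probes for 70.9%. The call rests on the mean of these probes, so this agreement is partly built in. Against WT repeat 1 alone 598 genes were called and against WT repeat 2 alone 1897. The genes called in all 3 fits numbered 204, of which 116 (2.35% of genes tested) were higher and 88 (1.79%) lower. Below, a gene or count is said to hold with either WT repeat when it belongs to these 204.

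**Figure D2:**
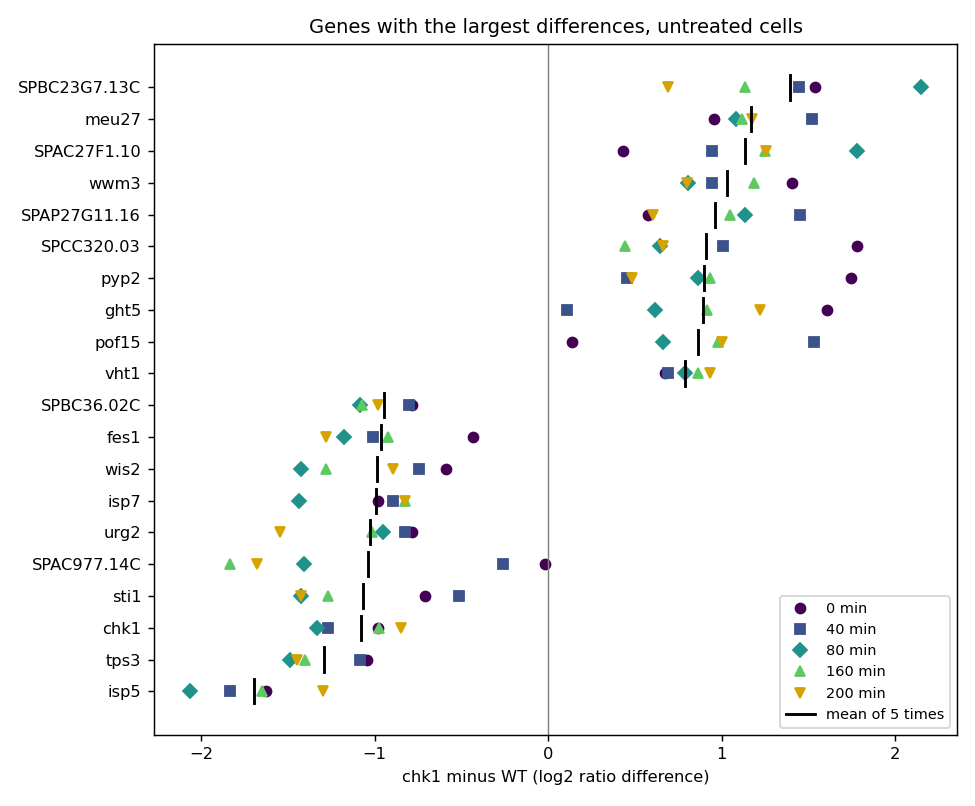
The 10 largest rises and 10 largest falls among called genes with one sign at all 5 times. Points give the chk1 minus WT difference (log2, horizontal axis) at each time, mean of 2 array repeats, and the black bar their mean. isp5 lies at -1.30 or lower at each time, and SPAC977.14C reaches from near 0 at 0 min to -1.84 (160 min).

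The largest fall was that of isp5, an amino acid permease gene known from sexual development and nitrogen starvation, by 1.69 ± 0.12 on the log2 scale, a 3.24-fold lower level (adjusted p = 4.88e-07). In WT it started at 4.05 and 4.55 (0 min) and went through 2.80 and 3.61 (40 min), 2.72 and 3.06 (80 min) and 1.83 and 2.10 (160 min) to 1.64 and 1.65 (200 min). In chk1 it went from 2.70 and 2.64 through 1.37 and 1.37, 0.84 and 0.81, and 0.34 and 0.29 to 0.30 and 0.39. Both strains thus came down from a high start, and chk1 was lower in 10 of 10 array pairs of the same time and repeat number. Such counts of array pairs, here and below, only describe the values. The call favours genes of one sign, and repeat numbers do not pair the arrays of the strains.

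Genes for taking up and using nitrogen sources were lower as a group, but less so in repeat 1. Of 14 measured, 7 fell and 1 rose, with a median difference of -0.28 against 0.00 over all genes. By array pair, the list median lay between -0.23 and -0.01 in repeat 1 and between -0.57 and -0.30 in repeat 2. Against WT repeat 1 alone 4 fell and 2 rose, and against WT repeat 2 alone 9 fell and 0 rose. Of the 7 falls, 4 held with either WT repeat. Those 4 were isp5, isp7, amt1 and gdh2. isp7, which encodes an oxygenase-like protein linked to amino acid uptake, fell by 0.99 ± 0.13 (adjusted p = 0.000344). amt1, an ammonium transporter, fell by 0.81 ± 0.12 (adjusted p = 0.00104), from a WT range of -0.28 to 1.49 to a chk1 range of -0.86 to 0.27. gdh2, a glutamate dehydrogenase, fell by 0.41 ± 0.06 (adjusted p = 0.00124). The amino acid permease genes put4 (-0.42) and per1 (-0.40) and the ammonium transporter gene amt2 (-0.37) passed on the mean of both WT repeats and not with WT repeat 1 alone. The oligopeptide transporter gene isp4 went the other way, by 0.37 ± 0.09 (adjusted p = 0.0121), not with WT repeat 2 alone. These members, like other called list members named below beyond the first 3 of a list, were chosen after their values were seen.

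The marker gene ura4 and the uracil-regulated gene urg2 fell too. ura4, the orotidine phosphate decarboxylase used as a selection marker in laboratory strains, read -0.47 and -0.48 (0 min), -0.04 and -0.01 (40 min), 0.10 and 0.12 (80 min), 0.29 and 0.26 (160 min), and 0.28 and 0.32 (200 min) in chk1. In WT its lowest array was at 0.33 and its highest at 1.37, above every chk1 array. The difference was -0.75 ± 0.13 (adjusted p = 0.00208). In cds1 ura4 was lower still (mean -0.97) and in rad3 it was near WT (0.58 against 0.79). urg2 fell by 1.03 ± 0.16 (adjusted p = 0.00124), with means of -0.83, -0.18, -2.52 and -1.86 in the order WT, rad3, cds1 and chk1. The other 7 marker genes measured, leu1, ade6 and his3 among them, did not pass.

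Chaperone genes, which fold and refold proteins, were lower in chk1. All 17 measured had a difference below 0, with a median of -0.59, and 8 of the 17 fell. The lowest was sti1, a co-chaperone linking Hsp70 and Hsp90, which fell by 1.07 ± 0.28 (adjusted p = 0.0209). In chk1 sti1 stood at -0.56 and -0.54 (0 min), -0.81 and -0.85 (40 min), -1.29 and -1.33 (80 min), -0.27 and -0.28 (160 min), and 0.18 and 0.15 (200 min). In WT it stood at 0.29 and 0.03, -0.11 and -0.53, 0.20 and 0.04, 0.95 and 1.04, and 1.49 and 1.69. Chk1 was lower at each time, and the gap was wider from 80 min on (-1.43, -1.27 and -1.42) than before (-0.71 and -0.51). The J-protein gene psi1 fell by 0.93 ± 0.25 (adjusted p = 0.0253), the Hsp90 activator gene aha1 by 0.77 ± 0.22 (adjusted p = 0.0313), hsp90 by 0.74 ± 0.21 (adjusted p = 0.0306) and the p23-type co-chaperone gene wos2 by 0.72 ± 0.18 (adjusted p = 0.0177). The Hsp70 gene ssa2 (-0.60), the Hsp40 gene mas5 (-0.59) and the mitochondrial co-chaperonin gene hsp10 (-0.56) complete the 8. Outside the list, wis2, a cyclophilin partner of Hsp90, fell by 0.99 ± 0.29 (adjusted p = 0.0333), and fes1, an exchange factor of Hsp70, by 0.97 ± 0.31 (adjusted p = 0.0492). The small heat shock gene hsp16 had a difference of -0.86 ± 0.48 and did not pass (adjusted p = 0.249), and cns1 lay at 0.00.

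The chaperone differences were seen at each time, with list medians of -0.39, -0.45, -0.71, -0.67 and -0.78 at 0, 40, 80, 160 and 200 min. In the order WT, rad3, cds1 and chk1, the list had mean levels of 0.43, 0.68, 0.34 and -0.15. The strains with the least and most chaperone RNA over these times were thus chk1 and rad3, and cds1 began far above the others at 0 min (1.29). The count of calls depended on the conditions in the fit: 0 of 17 passed without 80, 160 or 200 min, 1 without 40 min, and 15 when the fit held WT and chk1 alone. With either WT repeat alone 4 of the 8 (sti1, psi1, aha1 and hsp90) held.

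**Figure D3:**
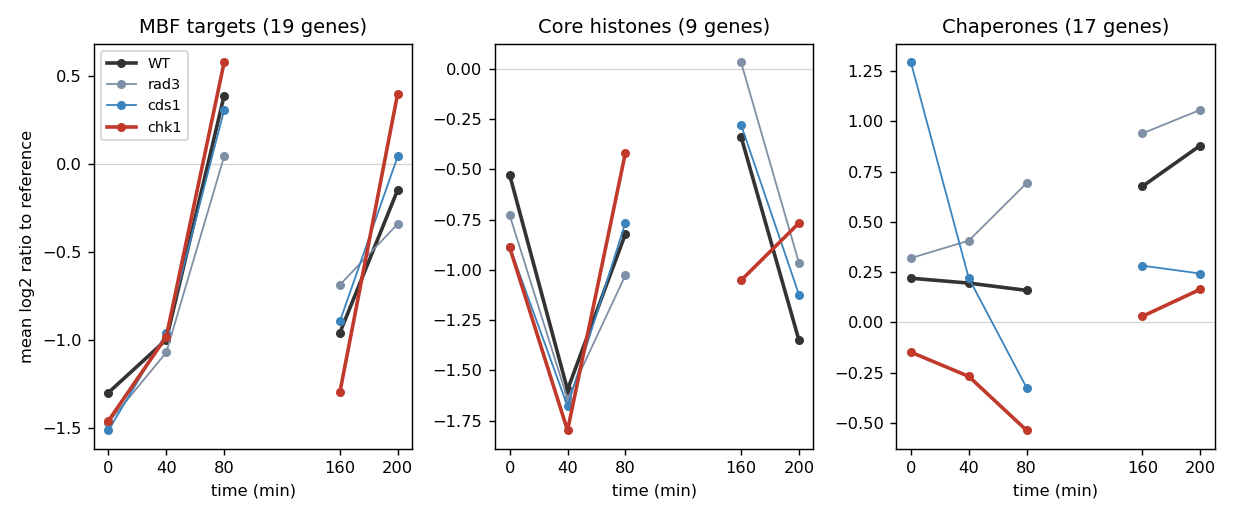
Mean level of 3 gene lists (log2 ratio to the reference) by time in minutes in the 4 strains, with the lines interrupted at the omitted 120 min. The chaperone mean of chk1 is the lowest of the 4 strains at each time, from -0.54 (80 min) to 0.16 (200 min). The MBF target and histone means of chk1 lie below WT at 160 min and above it at 200 min.

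Genes of the environmental stress response, the set that the Sty1 MAP kinase and its transcription factor Atf1 induce, did not move as a block. Of 25 measured (median -0.16), 3 fell (12%) and 2 rose (8%), where 6.19% of all genes fell and 5.93% rose. The atf1 transcript itself fell by 0.90 ± 0.11 (adjusted p = 0.000281). It went in WT from 2.68 and 3.49 (0 min) to 0.23 and 0.53, 0.00 and 0.20, 1.16 and 1.13, and 0.81 and 0.94 at the later times, and in chk1 from 2.37 and 2.36 to -0.69 and -0.67, -0.63 and -0.68, 0.26 and 0.24, and -0.30 and -0.09. The strains were closest in repeat 1 at 0 min and separate at all later times. pyp2, the phosphatase that switches Sty1 off, rose by 0.90 ± 0.18 (adjusted p = 0.00482), with 3.60 and 3.59 in chk1 against 1.64 and 2.05 in WT at 0 min. It was higher in chk1 in 10 of 10 array pairs. gpd1, which makes glycerol for osmotic protection, fell by 0.69 ± 0.11 (adjusted p = 0.00135). tps1, the trehalose phosphate synthase, fell by 0.87 ± 0.23 (adjusted p = 0.0209) on the mean of both WT repeats, and this call was lost with WT repeat 1 alone. tps3, of the same enzyme family and outside the list, fell by 1.29 ± 0.19 (adjusted p = 0.000943), and its WT and chk1 levels were 1.57 and 0.28 on average. The glutathione transferase gene gst1 rose by 0.48 ± 0.15 (adjusted p = 0.0395), not with WT repeat 1 alone. The core stress markers hsp9 (0.20), ctt1 (-0.09) and ntp1 (-0.23) did not pass.

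In the other strains, several of these genes stood with cds1 near chk1 and with rad3 near WT. Again in the order WT, rad3, cds1 and chk1, atf1 averaged 1.12, 1.29, 0.15 and 0.22. tps3 averaged 1.57, 1.86, 0.51 and 0.28, and pyp2 averaged -0.40, -0.13, 0.38 and 0.50. The chk1 minus rad3 difference passed for atf1 (-1.07 ± 0.11, adjusted p = 1.21e-05), tps3 (-1.58 ± 0.19, adjusted p = 4.44e-05) and pyp2 (0.64 ± 0.18, adjusted p = 0.0223). The chk1 minus cds1 difference did not pass for atf1 (0.06 ± 0.11, adjusted p = 0.756), tps3 (-0.24 ± 0.19, adjusted p = 0.43) or pyp2 (0.12 ± 0.18, adjusted p = 0.712). All these differences share the chk1 arrays and were not set against each other.

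ght5 and vht1, which import glucose and biotin, were among the rises. ght5, the main high-affinity glucose transporter, rose by 0.89 ± 0.17 (adjusted p = 0.00315). Its chk1 arrays read 1.06 and 1.16 (0 min), -1.51 and -1.45 (40 min), -1.24 and -1.25 (80 min), -0.61 and -0.64 (160 min), and -0.93 and -0.73 (200 min). The WT arrays read -0.44 and -0.55, -1.35 and -1.83, -1.65 and -2.07, -1.31 and -1.76, and -1.94 and -2.17. The strains were nearly level at 40 min and apart at the other times. Of the 8 hexose transporter genes measured, all had a difference above 0 (median 0.28), and ght7 (0.43 ± 0.12, adjusted p = 0.0302) was the other one to pass, not with WT repeat 1 alone. The paralogs of this family are similar in sequence, so signal may be shared between their probes. vht1 rose by 0.79 ± 0.13 (adjusted p = 0.00124) and was higher in 10 of 10 array pairs. Its mean was also above those of cds1 (by 0.98 ± 0.13, adjusted p = 0.00027) and rad3 (by 1.43 ± 0.13, adjusted p = 2.73e-06).

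The largest rise was that of SPBC23G7.13C, by 1.39 ± 0.20 (adjusted p = 0.000943). Its chk1 arrays went from 2.91 and 2.92 (0 min) down to 0.79 and 0.78 (200 min). The WT arrays went from 1.50 and 1.26 to -0.16 and 0.35 between these times. The lowest WT value, -1.29, was that of repeat 2 (80 min), while repeat 1 read 0.44 there. The SPBC23G7.13C mean of 1.65 in chk1 compares with 0.26 for WT, 0.56 for rad3 and 0.41 for cds1. wwm3 rose by 1.03 ± 0.25 (adjusted p = 0.0159), on top of a start at 0 min that was itself high in both strains (4.92 and 4.88 in chk1, 3.66 and 3.32 in WT). pof15, an F-box protein gene, rose by 0.86 ± 0.18 (adjusted p = 0.0071), and was highest at 40 min in both strains (1.37 and 1.39 in chk1, -0.11 and -0.19 in WT). SPAC2H10.01 (1.08), SPAP27G11.16 (0.96) and SPCC320.03 (0.91) passed in each of the 19 fits tried. SPAC27F1.10, named by its rise of 1.13, did not hold: the difference was 0.11 against WT repeat 1 alone and 1.86 against repeat 2 alone. Among the falls, SPBC36.02C lay at -0.95 ± 0.13 (adjusted p = 0.000439) and SPAC977.14C at -1.04 ± 0.27 (adjusted p = 0.021).

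Genes that commit cells to mating and meiosis, which nitrogen shortage induces, formed another list, and a link to nitrogen was not tested. Of 20, 5 fell (25%) and 2 rose (10%), where 6.19% of all genes fell and 5.93% rose. ste11, the transcription factor at the head of the pathway, fell by 0.83 ± 0.14 (adjusted p = 0.00171). Its WT arrays lay between -0.14 and 0.79, and its chk1 arrays went from -1.43 and -1.43 (0 min) over -0.57 and -0.55, -0.65 and -0.63, and -0.08 and -0.11 to -0.13 and -0.07 (200 min). The gap thus narrowed from the start to the end. The MAP kinase kinase gene byr1 fell by 0.46 ± 0.08 (adjusted p = 0.00187), while byr2, the kinase above it, rose by 0.37 ± 0.07 (adjusted p = 0.00353), and rep1, a transcription activator of meiotic S phase, by 0.26 ± 0.07 (adjusted p = 0.0218). mei2, an RNA-binding protein needed for meiosis (-0.55), pat1, the kinase that restrains it (-0.33), and the G protein gene gpa1 (-0.25) passed on the mean of both WT repeats and not with WT repeat 1 alone. The gpa1 difference was 0.05 against WT repeat 1 alone. Of the cell-type genes, mfm2, a precursor of the M-factor pheromone, fell by 0.57 ± 0.14 (adjusted p = 0.0137), and map4, an adhesin of P cells, rose by 0.33 ± 0.08 (adjusted p = 0.0196), the latter not with WT repeat 1 alone. They were 1 of 8 M-cell and 1 of 3 P-cell genes to pass. Among 117 genes with meiosis-upregulated names, 10 rose (8.55%) and 4 fell (3.42%), where 5.93% of all genes rose and 6.19% fell. Among those that held with either WT repeat, meu27 was at the head and mug5 (0.55 ± 0.09, adjusted p = 0.00196) next.

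Genes for proteins that use iron were lower in part. Of 14 genes, 6 fell, with a median of -0.27. aco1, the aconitase (-0.45 ± 0.09, adjusted p = 0.00625), and isu1, the scaffold for iron-sulfur clusters (-0.36 ± 0.07, adjusted p = 0.00382), held with either WT repeat. cyt1 (cytochrome c1), sdh1, sdh3 (succinate dehydrogenase) and rip1 (the Rieske protein) had differences of -0.51 to -0.33 on both WT repeats and of -0.22 to -0.11 on WT repeat 1. The iron repressor gene fep1 (-0.38) fell and the ferric reductase gene frp2 (0.29) rose, the only 2 of 12 iron uptake genes that passed. The fep1 call was lost with WT repeat 1 alone and the frp2 call with WT repeat 2 alone.

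Ribosomal protein genes, listed by names that begin with rps, rpl or rpp, looked lower, but by WT repeat. A name is no proof that a member, such as rpp1 (0.32, the highest of the list), encodes a ribosomal protein. Of 126 measured, 120 had a difference below 0 (median -0.26) and 19 fell, rps7 (-0.59 ± 0.12, adjusted p = 0.00509) and rpl31 (-0.55 ± 0.12, adjusted p = 0.0102) the furthest. By array pair, the list median was -0.14 in repeat 1 and -0.60 in repeat 2 at 0 min, and 0.11 and -0.33 (200 min). The mean level of the list was 0.46 in WT and 0.22 in chk1, 0.22 in rad3 and 0.24 in cds1. One of the 19 held with either WT repeat, rpp102 (-0.29), and the count was 6 with WT repeat 1 alone and 89 with repeat 2 alone. Paralogous ribosomal protein genes can share signal on their probes.

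**Figure D4:**
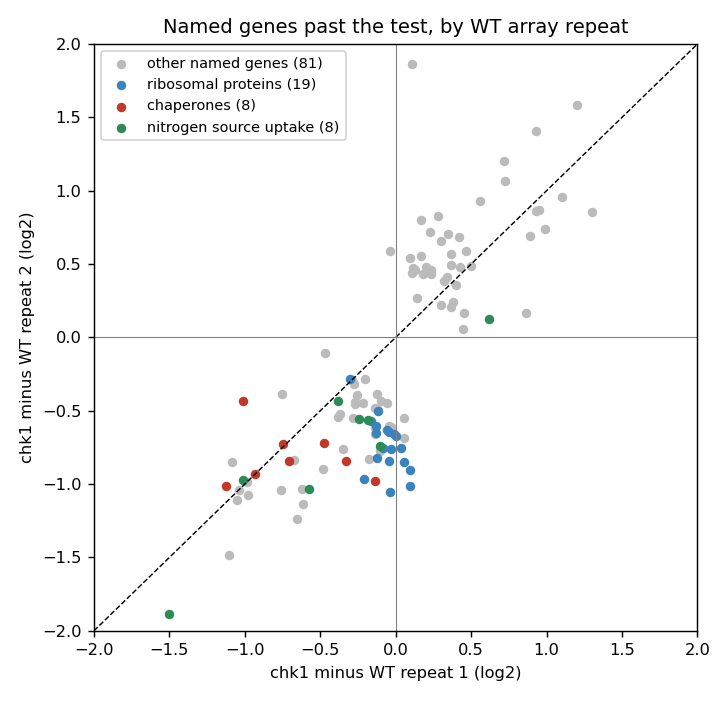
Chk1 minus WT (log2, mean of 5 times) for the 116 named genes that passed, with WT repeat 1 alone on the horizontal axis and WT repeat 2 alone on the vertical axis; the dashed line marks equality. Ribosomal protein genes (blue) lie between -0.30 and 0.10 on the horizontal axis and between -1.05 and -0.28 on the vertical axis, while isp5 (lowest green point) lies at -1.50 and -1.89.

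The checkpoint pathway to which Chk1 belongs showed little else. Of 24 genes measured (median 0.05), chk1, rad24 and rad25 fell (12.5%) and hus1 rose (4.17%), where 6.19% of all genes fell and 5.93% rose. rad24 (-0.25 ± 0.07, adjusted p = 0.027) and rad25 (-0.26 ± 0.08, adjusted p = 0.0444) encode the 14-3-3 proteins that bind Chk1 and Cdc25, and hus1 (0.29 ± 0.09, adjusted p = 0.0477) a subunit of the clamp. None of these 3 held with WT repeat 1 alone, where they lay at -0.06, -0.12 and 0.11.

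Genes of the replication and repair machinery had slightly higher medians. Of 38 replication factors 6 rose and 0 fell, where 5.93% of all genes rose, with a median of 0.08. ssb3, the small subunit of the single-strand binding protein RPA (0.47 ± 0.10, adjusted p = 0.0075), and psf1, of the GINS helicase complex (0.38 ± 0.08, adjusted p = 0.00947), held with either WT repeat. The helicase genes mcm6 (0.34) and mcm4 (0.28), cdc20 of DNA polymerase epsilon (0.31) and the primase gene spp2 (0.25) did not. Of 31 repair genes 4 rose (12.9%) and 1 fell (3.23%), where 5.93% of all genes rose and 6.19% fell. rev1, a translesion polymerase, rose by 0.53 ± 0.10 (adjusted p = 0.0029) and rad54, of homologous recombination, fell by 0.36 ± 0.11 (adjusted p = 0.046), the latter not with WT repeat 1 alone. Of the mitosis and septation genes, plo1, the Polo kinase, fell by 0.30 ± 0.08 (adjusted p = 0.0299) and 17 of 18 did not pass. In the dNTP supply list adk1 (-0.27) and ndk1 (-0.31) fell, neither with WT repeat 1 alone.

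The remaining lists moved little on the mean of the 5 times. The 9 core histones, 12 copper and zinc genes and 31 proteasome genes had 0 members called by limma. At an unadjusted limma p under 0.05 stood 1, 3 and 10 of them, beside 1422 of 4928 over all genes. Of 47 mitochondrial ribosomal protein genes 3 rose, mrpl40 (0.74 ± 0.17, adjusted p = 0.011), mrp10 (0.31) and mrpl24 (0.20). Of 17 redox genes sod2 (-0.42) and pgr1 (-0.31) fell, of 15 glycolytic genes tdh1 rose (0.52) and hxk1 fell (-0.32), of 6 phosphate genes vtc4 rose (0.31), and of 21 ribosome biogenesis genes fib1 fell (-0.32). The calls of mrpl24, sod2, pgr1 and hxk1 were lost with WT repeat 1 alone, where fib1 turned to 0.05, and those of tdh1 and vtc4 with WT repeat 2 alone.

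**Figure D5:**
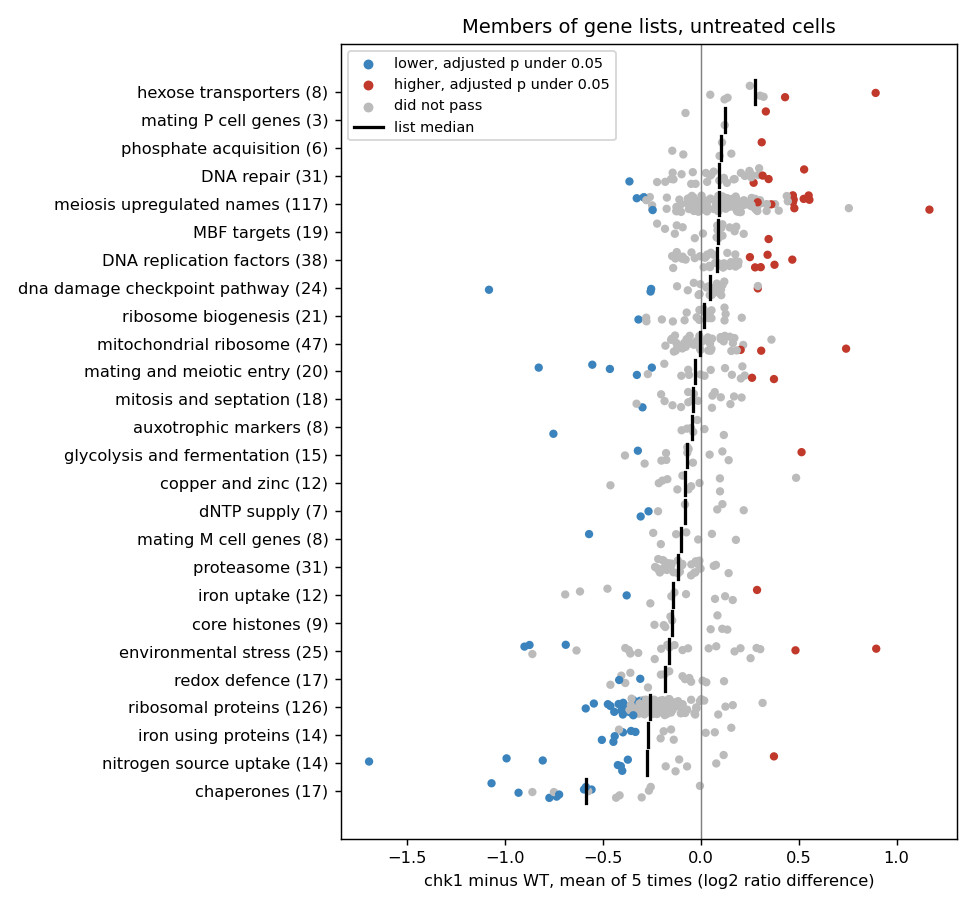
Chk1 minus WT (log2, mean of 5 times, horizontal axis) for each measured member of 26 gene lists, with list sizes in brackets. Blue and red points passed an adjusted p of 0.05, grey points did not, and the bar is the list median. The chaperone median of -0.59 is the lowest and the hexose transporter median of 0.28 the highest.

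The size of the strain difference varied with time. Genes that differed by at least 1 with one sign in both repeats numbered 32 at 0 min (0.649% of genes; 17 higher, 15 lower), 18 at 40 min (0.365%; 11 and 7), 11 at 80 min (0.223%; 2 and 9), 12 at 160 min (0.244%; 4 and 8) and 21 at 200 min (0.426%; 8 and 13). With 1 culture per strain and time there is no test at a single time. The genes were partly others at each time. The following were chosen after their values were seen. At 0 min SPAPB1A11.02 differed by -3.40, the fatty acid elongase gene elo1 by -1.72 and the invertase gene inv1 by 1.24. At 40 min the heme receptor gene str3 (-1.57) and the ferric reductase gene frp1 (-1.27) were lower in chk1. At 200 min adg1 (1.40), adg3 (1.25), genes expressed at cell separation, and the dUTPase gene dut1 (1.14) were higher.

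Genes that follow the cell cycle changed sign between the last times. MBF is the transcription factor of the G1/S genes, and the median difference of its 19 measured targets was -0.23, 0.03, 0.20, -0.35 and 0.53 over the 5 times in order. The core histones, which are transcribed in S phase, had medians of -0.32, -0.18, 0.42, -0.62 and 0.73 at these times. Both lists thus lay below WT at 160 min and above it at 200 min. cdc22, the large subunit of ribonucleotide reductase, was at -3.12 and -3.15 in chk1 against -2.81 and -2.44 in WT at 160 min, and at 0.63 and 0.59 against -0.83 and -0.37 (200 min). eng1, a septum glucanase, was at 0.76 and 0.77 in chk1 against -0.12 and -0.31 in WT at 200 min. Over the 5 times the mean difference of cdc22 was 0.08 ± 0.31 (adjusted p = 0.887), that of hta1, a histone H2A gene, -0.19 ± 0.19 (adjusted p = 0.55), and 1 of the 19 MBF targets, msh6, passed (0.35 ± 0.10, adjusted p = 0.0342), not with WT repeat 1 alone. Strain cannot be told apart from the synchrony of its culture at a given time. A limma contrast of late (160 and 200 min) minus early (0, 40 and 80 min) differences called 0 genes (0%), with 185 at an unadjusted p under 0.05, and it does not separate 160 from 200 min.

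Set against the other 2 mutants, chk1 differed from their mean at 303 higher (6.15%) and 203 lower genes (4.12%). Against cds1 alone 329 genes were higher (6.68%) and 275 lower (5.58%), and against rad3 alone 504 were higher (10.2%) and 333 lower (6.76%). Scaling made the first and the last split nearly even. Against the mean of both mutants they were 296 higher and 274 lower under quantile normalization, 267 and 242 with arrays centred on their median, and 303 and 292 with arrays brought to one spread. Against rad3 they were 461 and 465, 403 and 408, and 461 and 488 in the same order. These comparisons share the chk1 arrays with the one against WT, so only values are set side by side. Of the 17 chaperones, 8 were lower than the mean of rad3 and cds1, 12 lower than rad3 and 2 lower than cds1. Of the 14 nitrogen genes, 0 were lower than cds1 and 5 were higher, put4 by 0.97 ± 0.08 (adjusted p = 8.95e-07). The level of isp5 was 2.80 in WT, 1.40 in rad3, 1.11 in chk1 and 0.50 in cds1 on average. In that order rad3 and chk1 did not differ by the test (-0.30 ± 0.12, adjusted p = 0.114), and chk1 and cds1 did (0.60 ± 0.12, adjusted p = 0.00685). WT was thus the highest of the 4 strains for isp5, and amt1 ran in the same order (0.50 in WT, 0.10 in rad3, -0.30 in chk1 and -0.84 in cds1).

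The same contrast was fitted on arrays with HU at 40, 80 and 160 min, none of which entered the untreated comparison. The HU arm called 314 genes (6.37%), 158 higher (3.21%) and 156 lower (3.17%). Of the 292 genes higher without HU, 281 (96.2%) were above 0 with HU and 73 were called, which is 25% of the untreated and 46.2% of the HU calls. Of the 305 lower genes, 292 (95.7%) were below 0 and 88 were called, 28.9% of the untreated and 56.4% of the HU calls. Over all genes 73.9% had the same direction in both arms. isp5 (-1.57 ± 0.14, adjusted p = 0.000314), tps3 (-1.29 ± 0.13, adjusted p = 0.000939), atf1 (-1.04 ± 0.12, adjusted p = 0.00135), sti1 (-1.26 ± 0.23, adjusted p = 0.0136), meu27 (1.10 ± 0.24, adjusted p = 0.026) and vht1 (0.97 ± 0.18, adjusted p = 0.0136) passed with HU too. Of the chaperones 11 of 17 fell there. Genes that did not pass there include chk1 (-0.73 ± 0.28, adjusted p = 0.14) and pyp2 (0.48 ± 0.18, adjusted p = 0.13). The HU count rested on 3 times and was 22 without 40 min and 4 without 80 min. The labels mark the 0 min arrays of each strain as HU-/+, so the 2 arms of a strain share their start sample. The HU arm is therefore not taken as a second culture of a strain.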

How the data were processed

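Total RNA of synchronous fission yeast was measured on 2-colour arrays, with the sample in Cy5 and a common WT reference in Cy3, per the labels. The deposited values are log2 ratios, sample to reference. The log2 scale was inferred from the values, 99.678% of which match a ratio rounded to 3 decimals, and the direction follows the dyes per the labels. How the authors corrected background, normalized and filtered spots is not given in the sources used here; scanner values were not used. The number of arrays, not a depth, limits the precision.

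Of 9858 probes, 9632 had 1 gene symbol in the platform annotation, 44 several and 182 none. Symbols of 9582 were updated through a RefSeq gene table (ASM294v3), used for names and gene order only. Probes with values on fewer than 80% of arrays (35) were left out, and probes of a gene were averaged to 4928 units (4815 named). Each condition entered as the mean of its 2 array repeats, which the study names technical. Limma 3.58.1 (lmFit, eBayes; R 4.3.3) was fitted to the 20 conditions of 4 strains on strain and time (residual degrees of freedom 12, and 6 with HU), with Benjamini-Hochberg adjustment over all genes at 0.05. The fit was tested on simulated data.

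Repeat numbers do not pair WT with chk1 arrays: the deviations of same-numbered arrays correlated between -0.04 and 0.02 over the times. The members, gene lists and tests were chosen with earlier results of these data known. Named genes were the 10 largest rises and falls among called genes with the same sign throughout, up to 3 members per list with the largest absolute difference, the 3 largest rises and falls of the HU and the late contrast, the 5 measured neighbours on either side of chk1, and 20 genes set by name (the 3 kinases, MBF targets, histones, mitotic genes and markers). Alternatives changed the conditions in the fit, the repeats, the times, the scaling, the variance model, the missing-value filter and the probes.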

Additional observations from a re-analysis of the deposited data

Results flagged for a closer look

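The MBF targets and the core histones stood out because all array pairs lay on one side of WT at 160 min and on the other at 200 min. The median chk1 minus WT difference of the MBF targets was -0.32 in repeat 1 and -0.34 in repeat 2 at 160 min, and 0.52 and 0.48 at 200 min, a change of 0.830 between the lists' repeat means on the log2 scale. For the core histones it was -0.53 and -0.84 at 160 min and 0.83 and 0.49 at 200 min, a change of 1.35. The difference between the 2 times was not tested, since each is 1 culture per strain.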

How the results depend on the processing

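Counts of called genes moved with the arrays, times and conditions in the fit and with the scaling. The 597 untreated calls became 398 under quantile normalization, 629 with arrays centred on their median and 438 with arrays brought to one spread. The 597 untreated calls became 465 to 1605 when array repeat 1 or 2 was left out of all strains and 598 to 1897 when it was left out of WT only. They became 238, 288 and 230 without 40, 80 or 160 min, 358 (60 higher, 298 lower) when the 120 min arrays of all strains were added, and 1068 with each array as a sample and a replicate block. The late minus early contrast gave 5 calls with the replicate block and 7 without 80 min. Against the mean of rad3 and cds1, 506 calls became 264 with only the strains compared, 331 with 120 min of all strains, 963 with the replicate block, 192 to 565 without a repeat, and 147, 228, 333 and 228 without 40, 80, 160 or 200 min. Against cds1, 604 became 380 with only the strains compared, 1036 with the replicate block, 245 to 322 without a repeat, and 176, 233, 340 and 257 without these times. Against rad3, 837 became 339 with only the strains compared, 1336 with the replicate block, 935 to 1033 without a repeat, and 505, 544, 467 and 519 without these times. With HU, 314 became 149 with only the strains compared, 976 with the replicate block, 421 to 992 without a repeat, 578 to 1184 without a WT repeat, 22 without 40 min and 4 without 80 min. The labels give no pairing by repeat number; same-numbered arrays of WT and chk1 did not deviate together, and those of WT and rad3 deviated in opposite ways (correlations of -0.73 to -0.37 over the 5 times). The causes were not tested, except that leaving out times leaves fewer samples.

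Some named genes turned their sign between the 4 fits that left out 1 array repeat, of all strains or of WT only, with repeat 2 left out on the second side: fib1 went from -0.69 to 0.052, gpa1 from -0.57 to 0.068, mcm4 from 0.59 to -0.035, rpl14 from -0.91 to 0.095, rpl1601 from -1.01 to 0.092, rpl1702 from -0.76 to 0.042, rpp201 from -0.69 to 0.027 and rps3 from -0.85 to 0.058. SPAC27F1.10 went from 1.86 without WT repeat 1 to -0.044 without repeat 2 of all strains. Of the 116 named genes called, 25 kept their call in all 19 fits, among them chk1, meu27, isp5, isp7, amt1, atf1, tps3, pyp2, ght5, vht1, ste11 and ura4.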
